A study of Mus musculus with 2 samples.

Results

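Peaks of the histone mark H3R17me2a that lie in gene deserts were examined in the mouse heart. They were the shared peaks, that is list 1 peaks on chromosomes 1 to 19 overlapping a list 2 peak by at least 1 bp, whose midpoint was over 100000 bp from the nearest protein-coding gene span, whether or not a noncoding gene was there. The members were thus selected on the peak calls of both lists, so their fold, p and reads are described and not tested. This rule gave 569 of 20591 shared peaks, or 2.76% (95% exact binomial interval 2.54 to 3.00%). H3R17me2a was profiled by ChIP-seq, in which chromatin fragments pulled down by an antibody are sequenced and a peak is a stretch with more fragments than the background. The 2 samples formed 1 group, wild-type mouse heart at 21 days after birth (P21), with no treatment named and no control group. The labels disagree in places. The tissue field names heart and the protocol frozen cardiac tissue, the source field names cardiac fibroblasts, the design names neonatal hearts, the titles carry the name carm1 while the genotype field says wild type, and the antibody target is given as H3R17me2. Whether the samples were separate animals is not stated.

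H3R17me2a is the asymmetric dimethyl form of an arginine on the tail of histone H3. It is written by Carm1, an arginine methyltransferase that acts as a coactivator beside transcription factors, and it is known from active promoters and enhancers. A gene desert is a long stretch without coding genes, and deserts are known to hold distant enhancers of the developmental genes that flank them, as well as long noncoding RNA (lncRNA) genes. In bulk tissue, the share of cells that carry a mark and its level per cell cannot be told apart.

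The lists held 21198 and 37368 peaks on these chromosomes and differed in stringency, with a lowest −log10 p of 5.0 and 2.01. The fold of a peak over its background is the authors' own value and was used only within its list. The number of reads at each summit was recovered from the deposited fold and p. Over the desert peaks, 271 of 569 had their summit on the same base in both lists, 211 had equal reads, and at equal summits the reads differed by a median of 1. The lists were therefore counted as 1 sample and 2 peak calls, and no p is given. A gene was called marked where a peak of each list lay within 1000 bp of either end of its span. Marked were 40.1% of all coding genes, 34 of 42 sarcomere genes, 44 of 52 genes of energy metabolism, 29 of 45 heart transcription factor genes and 29 of 50 calcium and ion channel genes, and 13 of 46 matrix and fibroblast, 4 of 25 endothelial, 2 of 25 immune and 3 of 1518 olfactory and vomeronasal receptor genes.

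The few desert peaks that sat on a known start are shown first, because there the sequence under the mark can be read from the reference. In all, 19 desert peaks touched 21 promoter windows (250 bases before to 50 after an annotated start) of 20 noncoding genes. The windows below, from RefSeq on GRCm38.p6, are the 6 touched by the peaks with the best summed rank by fold over both lists. Each is written 5′ to 3′ on the gene's strand, and capitals mark each CG pair, the base step that is dense in promoters of broadly used genes. All 6 genes are lncRNAs.
Mir100hg: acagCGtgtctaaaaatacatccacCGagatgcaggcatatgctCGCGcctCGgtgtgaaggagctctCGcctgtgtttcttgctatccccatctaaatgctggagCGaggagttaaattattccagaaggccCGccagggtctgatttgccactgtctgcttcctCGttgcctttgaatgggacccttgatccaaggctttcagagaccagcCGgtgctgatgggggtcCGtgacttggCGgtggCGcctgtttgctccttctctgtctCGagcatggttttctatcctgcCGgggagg
Gm29998: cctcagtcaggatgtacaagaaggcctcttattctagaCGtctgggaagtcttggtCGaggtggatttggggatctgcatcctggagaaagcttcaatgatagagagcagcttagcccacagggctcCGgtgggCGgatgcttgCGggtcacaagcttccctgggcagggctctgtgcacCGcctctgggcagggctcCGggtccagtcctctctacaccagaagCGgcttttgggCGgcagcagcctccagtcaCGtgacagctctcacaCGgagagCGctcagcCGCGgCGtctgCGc
Gm34259: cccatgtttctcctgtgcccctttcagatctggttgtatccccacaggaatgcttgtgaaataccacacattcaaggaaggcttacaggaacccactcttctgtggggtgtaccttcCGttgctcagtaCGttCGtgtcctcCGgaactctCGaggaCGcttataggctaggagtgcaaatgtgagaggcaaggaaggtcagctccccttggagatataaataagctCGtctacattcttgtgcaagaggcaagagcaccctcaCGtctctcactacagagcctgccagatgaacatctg
Gm31816: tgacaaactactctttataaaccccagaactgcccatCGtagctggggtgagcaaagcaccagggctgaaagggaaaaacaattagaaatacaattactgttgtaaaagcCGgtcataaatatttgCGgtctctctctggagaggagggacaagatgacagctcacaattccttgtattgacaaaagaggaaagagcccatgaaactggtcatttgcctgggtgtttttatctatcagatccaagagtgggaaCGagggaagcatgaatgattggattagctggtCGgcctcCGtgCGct
4930452A19Rik: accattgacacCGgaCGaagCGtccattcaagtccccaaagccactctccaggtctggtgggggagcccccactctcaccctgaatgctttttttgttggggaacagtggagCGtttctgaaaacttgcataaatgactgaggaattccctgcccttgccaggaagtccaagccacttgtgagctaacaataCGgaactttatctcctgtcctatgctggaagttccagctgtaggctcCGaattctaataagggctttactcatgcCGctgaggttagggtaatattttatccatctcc
4732465J04Rik: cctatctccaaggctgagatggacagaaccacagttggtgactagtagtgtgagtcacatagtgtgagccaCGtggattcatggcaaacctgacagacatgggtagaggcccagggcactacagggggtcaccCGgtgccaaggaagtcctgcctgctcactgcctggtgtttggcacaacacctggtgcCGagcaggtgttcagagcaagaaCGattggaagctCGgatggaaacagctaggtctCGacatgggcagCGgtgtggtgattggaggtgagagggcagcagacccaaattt

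Gm29998 held 16 CG pairs (chr19:33391551-33391850, plus strand), Mir100hg 15 (chr9:41376276-41376575, plus strand) and Gm34259 8 (chr17:4612129-4612428, plus strand). Gm31816 (chr9:47307951-47308250, minus strand), 4930452A19Rik (chr17:9775817-9776116, minus strand) and 4732465J04Rik (chr10:95772883-95773182, plus strand) held 7 each. The median was 5 over the 21 touched windows, 3 over the 2017 noncoding windows as far from coding genes, and 7 over all windows of the table. Of those 2017 windows, 1.04% were touched by peaks of both lists, against 9.55% of all noncoding and 36.6% of all coding windows. Thus the mark was seen at few of the promoter windows inside deserts, and most desert peaks touched none. The TATA element TATAAA, searched on both strands and counted whatever else it overlapped, was in 4 of the 21 touched windows (19%), 20.1% of the far noncoding windows and 13.6% of all windows.

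The mark was thinly spread in deserts. Stretches over 100 kb from a coding gene covered 691 Mb, 28.3% of the chromosome length considered, and held 0.823 shared peaks per Mb. Stretches 10 to 100 kb from a coding gene held 3.74 per Mb, coding genes away from their ends 9.72 per Mb, and the windows at gene ends 101 per Mb. Outside coding genes and the windows at their ends, density thus fell with distance, from 6.62 per Mb at up to 10 kb. Chromosome 13 held 55 desert peaks, 5.48% of its shared peaks, while chromosome 7 held 11, or 0.835%.

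**Figure D1:**
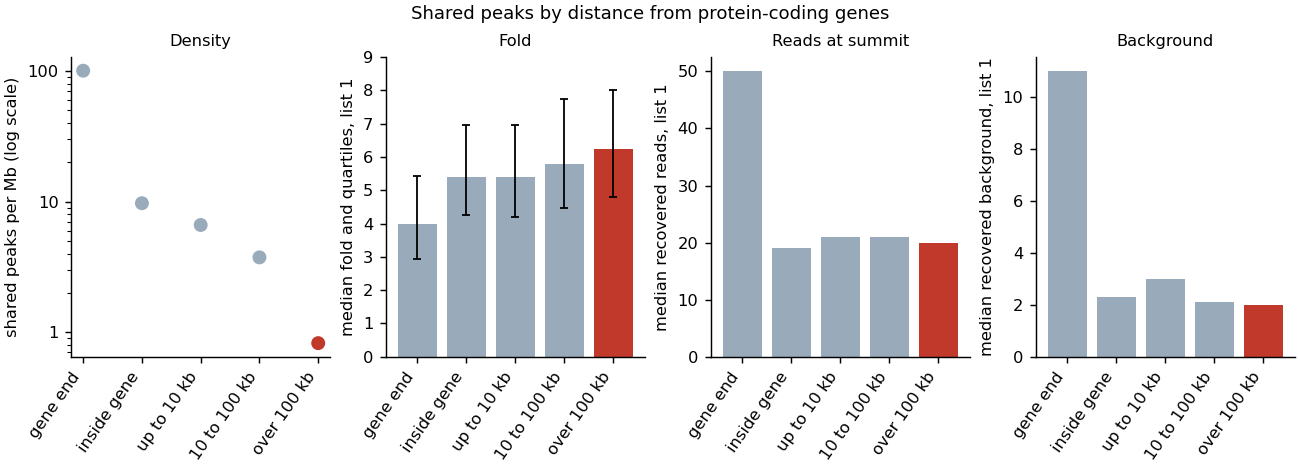
Shared peaks by position relative to protein-coding genes: peaks per Mb (log axis), median fold in list 1 with bars from the lower to the upper quartile, and median recovered reads and background at the summit in list 1. Desert peaks (red) were the sparsest class at 0.823 per Mb and had the highest median fold, 6.25, with fewer reads than gene ends (20 against 50) over a lower background (2.00 against 11.0).

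Desert peaks had a high median fold at a read number close to that of the other classes away from gene ends. The median fold in list 1 was 6.25 in deserts, 5.80 at 10 to 100 kb, 5.39 inside coding genes and 4.0 at gene ends. In list 2 these medians were 5.30, 4.87, 4.29 and 3.68, the same order. The median desert summit held 20 reads over a background of 2.00 in list 1, the median summit at 10 to 100 kb 21 reads over 2.12, that inside coding genes 19 over 2.28, and that at gene ends 50 over 11.0. The lowest background in list 1, 1.01 reads, was met by 28.8% of desert peaks, 21.8% of peaks at 10 to 100 kb, 17.9% of peaks inside coding genes and 2.36% of gene-end peaks, and at that background the desert median was 7.46, against 5.67 for the other desert peaks. Median widths in list 1 were 401 bp in deserts and 510 bp at gene ends, and 52 desert peaks were wider than 1000 bp. In list 2, 58 of the 569 had a q above 0.05. The peak values chose the members, so these medians are given as a description.

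Most desert peaks were not deep inside their desert. The median distance to the nearest coding gene was 175 kb, 334 peaks (58.7%) lay at 100 to 200 kb, 192 at 200 to 500 kb, 40 at 500 to 1000 kb and 3 beyond. Nearest to the threshold on the inner side was a peak between Map3k1 and Ankrd55 at 100003 bp (chr13:112187996-112188901, folds 8.34 and 5.28 in list 1 and list 2). On the outer side was a peak between Mctp2 and Rgma at 99810 bp (chr7:73275198-73276223, folds 9.83 and 5.51). Between Magi3 and Lrig2 the threshold separated a pair of close peaks, at 100011 bp (6.67 and 4.11) and 98805 bp (6.37 and 4.11).

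The 3 farthest peaks differed in kind. The peak between Celf4 and Pik3c3 on chromosome 18 was 1413 kb from a coding gene, with folds 4.80 and 5.07, and touched the lncRNA 4930474G06Rik. A peak between Hace1 and Grik2 (chr10:46785666-46786175, 1074 kb) had folds 8.0 and 9.70 on 23 and 25 reads. The peak between Flrt2 and Galc (chr12:97061541-97061781, 1141 kb) had the lowest fold of all desert peaks in both lists, 1.36 and 1.62, with 488 reads over a background of 358 in list 1. That position had the most reads of any desert peak and a background far above the median of 2.00.

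The 12 peaks with the highest folds in both lists together ranged from 12.6 to 27.3 in list 1 and from 12.3 to 21.9 in list 2. Their summits lay within 3 bp of each other in all 12, and on the same base in 7. The leading peak lay between Sall1 and Tox3, which encode a zinc finger and a high mobility group transcription regulator (chr8:90013505-90014208, 233 kb from Tox3), with folds 21.1 and 21.9 on 43 and 58 reads. The highest list 1 fold, 27.3, lay between Agtr1b, an angiotensin II receptor gene, and Tbl1xr1, a subunit of a nuclear receptor corepressor complex (chr3:21564276-21565488), with 17.9 in list 2 and 56 and 63 reads. Between Egflam and Gdnf, a gene for a neurotrophic factor, a peak at chr15:7692172-7692505 had folds 21.4 and 15.3. Between Tbc1d22a and Tafa5 a peak inside the lncRNA A930027H12Rik (chr15:87107592-87108062) had folds 20.01 and 21.5 on 59 and 57 reads. A peak 211 kb from Diaph3, in the desert it shares with Pcdh17 (chr14:86444110-86444496), had folds 16.9 and 16.7. Between Wdr20rt and Rpl10l a peak at chr12:65386400-65387680 had folds 15.9 and 14.2. Of the 24 genes flanking these 12 peaks, 7 were marked at an end: Tbl1xr1, Jarid2, Sp3, Rreb1, Mkln1, Bcl2l11 and Mon1b. Of the 12 nearest genes 6 were marked. Over all 473 flanking genes 225 were marked, and over the 205 flanks of the 144 peaks ranked highest by fold 95 were, or 46.3%.

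**Figure D2:**
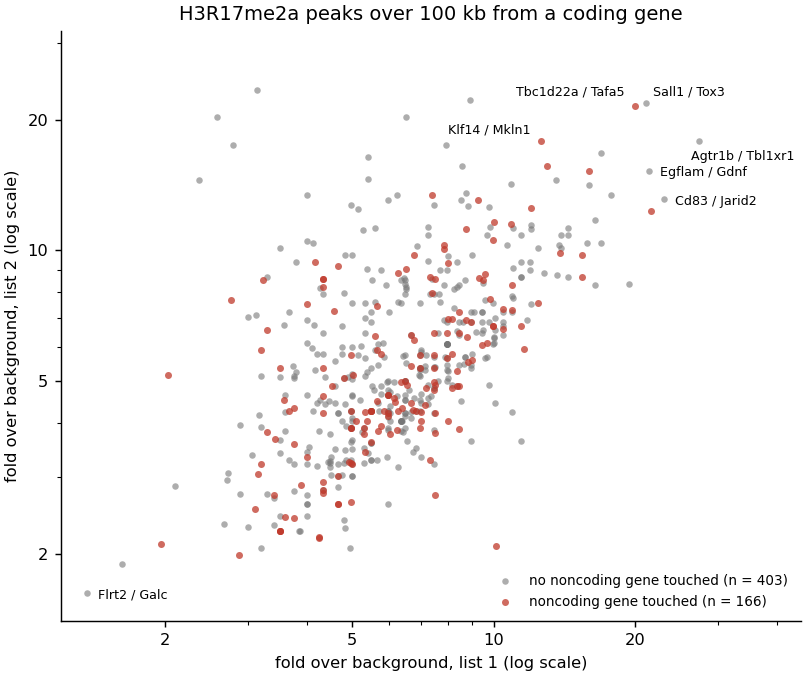
Fold over background of each of the 569 desert peaks in list 1 (x axis) and list 2 (y axis), both on log scales, with peaks touching a noncoding gene in red (166) and the rest in grey (403), and 7 peaks named by their flanking genes. The cloud rises from 1.36 and 1.62 between Flrt2 and Galc to 27.3 and 17.9 between Agtr1b and Tbl1xr1, and red and grey points lie over each other.

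Fold and reads did not always move together between the lists. A second peak between Agtr1b and Tbl1xr1 (chr3:21406981-21407713) had 106 reads in each list but folds of 8.92 and 22.2. Its background was 11.0 in list 1 and 2.00 in list 2, so the difference lay in the background. The highest list 2 fold of any desert peak, 23.4 between 1810046K07Rik and Arhgap20, came with 3.13 in list 1, and there the summits were 390 bp apart. The widest desert peak, 2798 bp in both lists, lay between Sec61b and Nr4a3 (chr4:47592243-47595040) with folds 5.37 and 5.24 and 117 reads in each. A 2145 bp peak 106 kb from Vegfa had folds 5.37 and 9.06 on 58 and 57 reads, and a 2083 bp peak between Irf2bp2 and Tomm20 had folds 9.5 and 6.57 on 94 reads in each.

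Most wide gaps held no desert peak. Of 1393 gaps wider than 200 kb between neighbouring coding genes, 245 (17.6%) held one. A desert peak must lie over 100 kb from both flanks, so the narrower gaps had little room. The median width was 656 kb in gaps with and 389 kb in gaps without desert peaks. Whether peaks gathered beyond what gap width allows was not tested. The 245 gaps held 566 of the 569 peaks, and the other 3 lay between a chromosome end and Insr. In 123 gaps there was 1 peak, in 48 there were 2, in 31 there were 3, and 43 gaps with 4 or more held 254 peaks (44.6%).

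The desert between Cd83 and Jarid2 on chromosome 13, 928 kb wide, held 16 peaks. Cd83 encodes a surface protein of mature dendritic cells, and Jarid2 a chromatin protein of Polycomb complexes that is needed in heart development. List 1 folds ran from 3.80 to 23.0 and reads from 13 to 68. The highest, 228 kb from Jarid2 (chr13:44502076-44502614), had 68 and 62 reads and folds 23.0 and 13.1. The next highest in list 1, at 9.83 and 7.74 (chr13:44608103-44609219), was among 4 peaks that touched the lncRNA Gm40931. The peaks spread over 719 kb, from 101 kb of Cd83 to 108 kb of Jarid2. Jarid2 was marked (gene-end folds 3.24 and 2.49), with a peak of each list at the start that faces the desert, and Cd83 was not.

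The desert between Klf14 and Mkln1 on chromosome 6 held as many, 16 peaks in 440 kb. Of these, 8 touched Lncpint, a lncRNA known as a target of p53, and 3 touched 2210408F21Rik. The highest fold was inside Lncpint (chr6:31099813-31100434, 12.6 and 17.9 on 62 and 63 reads), and the most reads, 96 and 101, lay at chr6:31216196-31218119, with folds of 3.88 and 2.88. Mkln1, the gene of the intracellular protein muskelin, was marked (3.14 and 3.01). Klf14 had a list 2 peak alone within reach of its gene ends (2.74).

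Between Myc, the growth-regulating transcription factor gene, and Gsdmc there were 10 peaks in 1786 kb, and 5 of them touched Pvt1, a long noncoding RNA gene next to Myc. All but 1 of the 10 had their midpoint within 338332 bp of Myc, and the highest of these in list 2 (chr15:62328348-62329038) had folds 8.57 and 15.6 on 59 and 60 reads. Myc was marked (6.81 and 2.74). Between Trib2, a pseudokinase gene, and Lpin1, which encodes a phosphatidate phosphatase of lipid synthesis, 10 peaks had list 1 folds from 3.20 to 8.67, and both genes were marked (6.73 and 4.38, 8.23 and 6.59).

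The desert between Ly86 and Rreb1, a zinc finger gene of Ras signalling, held 8 peaks within 97.8 kb. A peak at chr13:37628789-37629608 had 78 reads in each list and folds 17.8 and 13.4, and one at chr13:37561650-37562777 had folds 12 and 11.4. The other 6 lay between 2.89 and 8.46 in list 1. Rreb1 was marked (3.50 and 2.12) and Ly86 was not. Between Agtr1b and Tbl1xr1 there were 7 peaks, 3 of them in the lncRNA Gm31813, with list 1 folds from 5.57 to 27.3. Between Slc4a3, an anion exchanger gene, and Epha4, an ephrin receptor gene, 7 peaks had folds from 3.50 to 7.96 and up to 129 reads, and both genes were marked. Between Zfp608 and Gramd3 on chromosome 18, 7 peaks had folds from 5.47 to 10.003 and none touched a noncoding gene.

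**Figure D3:**
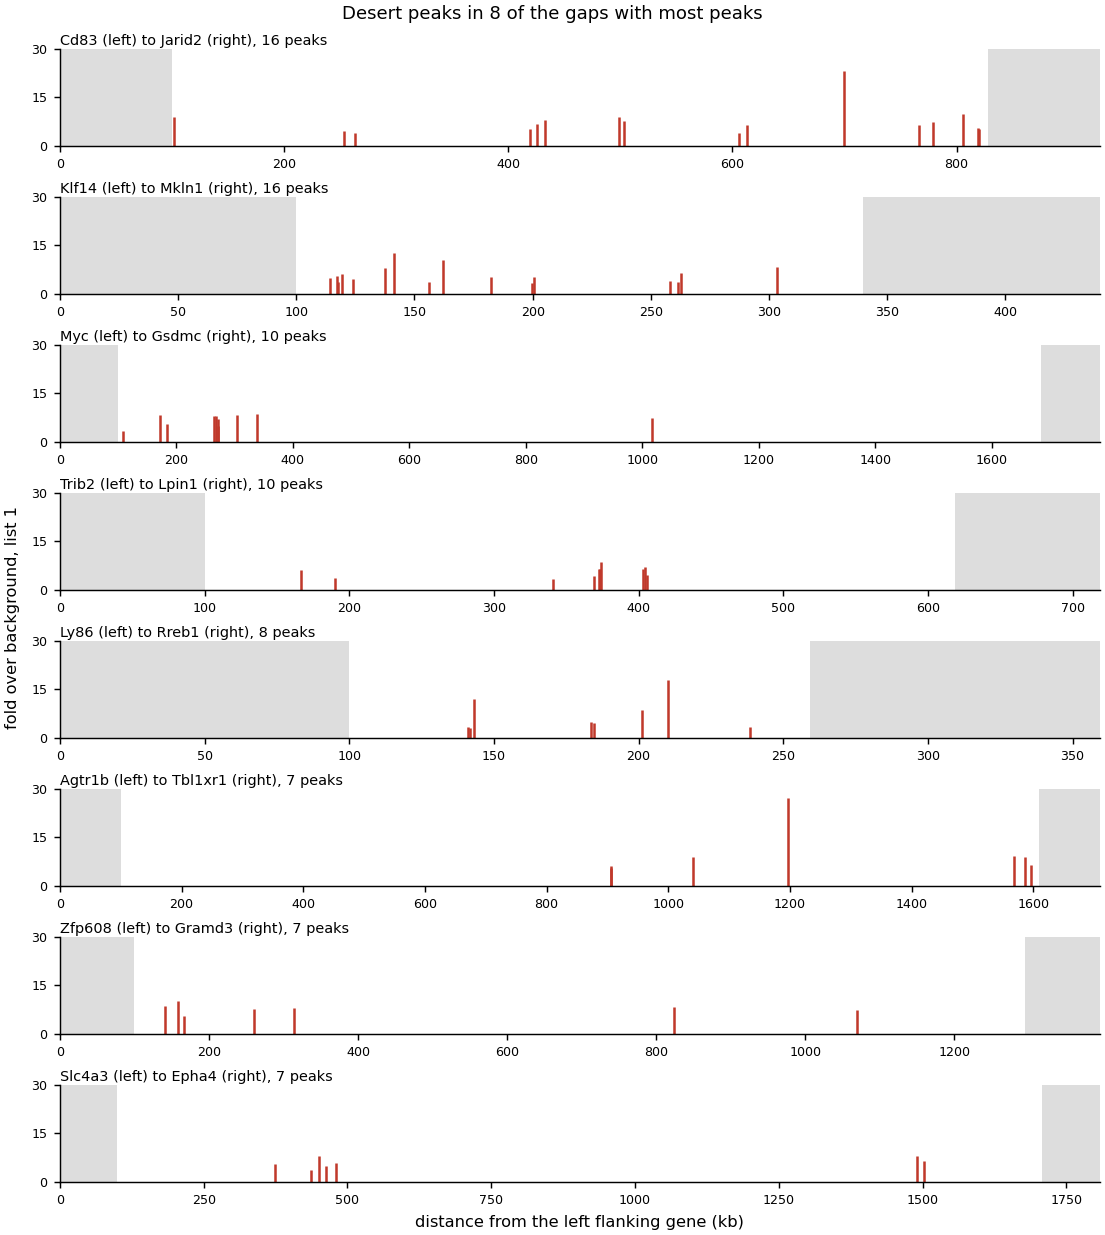
Position of each desert peak in 8 of the gaps with most peaks (those tied at 7 peaks taken by summed fold), in kb from the left flanking coding gene, with line height showing the fold in list 1 and grey bands the 100 kb beside each gene where no desert peak can lie. The gaps from Cd83 to Jarid2 and from Klf14 to Mkln1 hold 16 peaks each, and the tallest line, 27.3, stands between Agtr1b and Tbl1xr1.

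Noncoding genes were often present. Of the 569 peaks, 166 (29.2%, interval 25.5 to 33.1%) touched one, against 32.5% of the shared peaks 10 to 100 kb from coding genes, and noncoding genes covered 12.2% of the desert length. Nearly all such contacts were with lncRNAs, 161 peaks at 109 genes, and the others were with pseudogenes, a tRNA, a snoRNA, and the genes Vis1 and Gm30124, of other RNA types. Of 2253 lncRNA genes over 100 kb from a coding gene, 107 (4.75%) were touched. The median fold was 6.36 in peaks touching a noncoding gene and 6.25 in the others in list 1, and 4.97 and 5.36 in list 2, so the order turned between lists.

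Several touched lncRNAs lay in deserts beside a gene they are known to act on. Morrbid, known for restraining Bcl2l11 in myeloid cells, held 3 peaks, the highest with folds 21.6 and 12.3 on 48 and 47 reads (chr2:128338331-128339690, 176 kb from Bcl2l11). Bcl2l11, which encodes the cell death protein Bim, was marked (5.55 and 4.40). Mexis, known for its effect on the cholesterol transporter gene Abca1 in macrophages, held a peak with folds 8.75 and 11.2 (chr4:53263897-53264130). Pvt1 and Mexis were singled out after their values were seen. By fold, the leading touched lncRNA genes also included Gm30257 beside Sp3 (15.9 and 15.3), Gm29955 beside Mon1b (13 and 15.6), Gm34184 beside Nuak1 (12 and 12.5), Gm31060 between Adgrl2 and Adgrl4 (15.4 and 9.77) and Gm36139 beside Hmcn1 (13.9 and 9.87).

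No desert peak touched a microRNA gene, but 6 hairpins of the 919 in the table were within 15 kb of one. Of the 919, 101 had their midpoint over 100 kb from a coding gene, and the 6 were among these. The 6 are shown because the seed sets which messages each can pair with. The mature arms below, from RefSeq on GRCm38.p6, are written 5′ to 3′ with the seed (bases 2 to 8), which pairs with target messages, in capitals.
mmu-miR-29a-3p: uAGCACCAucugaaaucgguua
mmu-miR-29b-3p: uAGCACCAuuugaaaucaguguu
mmu-miR-125b-5p: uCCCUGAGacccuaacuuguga
mmu-miR-99a-5p: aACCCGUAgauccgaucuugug
mmu-let-7c-5p: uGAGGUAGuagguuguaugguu
mmu-miR-6372: aGAACUGGggaaacuuccagccu

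The miR-29 members, known as repressors of collagen genes in cardiac fibroblasts, share the seed AGCACCA. Mir29b-1 and Mir29a lay 10.2 and 10.6 kb from the nearest of 3 peaks in the Klf14 to Mkln1 desert, which had folds 4.75 and 3.03 on 18 reads in each list. Mir125b-1 lay 1.63 kb from a peak inside its host Mir100hg (chr9:41579932-41580301, folds 8.46 and 3.87 on 16 and 9 reads). The Mir100hg promoter printed above was touched by a further peak (chr9:41376298-41376813) with folds 9.95 and 6.68 on 19 and 20 reads. Mir99a and Mirlet7c-1 lay 4.11 and 4.83 kb from a peak between Usp25 and Cxadr (chr16:77593624-77594829, folds 3.50 and 3.42 on 27 and 26 reads). Mir6372 lay 8.21 kb from a peak in the lncRNA 5730522E02Rik, with folds 5.85 and 4.27. In list 1 the Mir125b-1 and Mir100hg promoter peaks were above the upper quartile of desert peaks, 8.003, and the others near microRNA hairpins named here were below the median of 6.25. In list 2 neither was: the Mir125b-1 peak, at 3.87, was below the lower quartile of 4.04. The Mir100hg promoter peak, at 6.68, was below the list 2 upper quartile of 7.57.

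The coding genes that flank desert peaks were marked somewhat more often than coding genes at large. Of 473 flanking genes, 225 were marked at an end, 47.6% (interval 43.0 to 52.2%), against 40.1% of all 20661 coding genes on these chromosomes. Over the 310 genes nearest to a peak it was 51.0%. This excess was not seen with the upper 50% of each list by fold (11.6% against 12.6% of all coding genes) or with list 2 alone (45.1% against 47.7%). Genes flanking any gap wider than 200 kb were marked in 34.4% of cases, below all coding genes, so gaps were also compared with gaps. Genes flanking the 245 gaps with desert peaks were marked in 47.5% of cases (224 of 472), and genes flanking the 1148 gaps wider than 200 kb without them in 31.3% (624 of 1992, interval 29.3 to 33.4%). With the upper 50% by fold this difference fell from 16.1 to 2.27 percentage points, and with list 2 alone to 7.03. Both flanks were marked in 24.5% of gaps with and 8.80% of gaps without desert peaks, and neither in 28.2% and 48.2%.

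The difference was present at each gap width. In gaps of 200 to 500 kb the flanking genes were marked in 54.8% with and 32.4% without desert peaks, in gaps of 500 to 1000 kb in 52.4% and 29.5%, and in wider gaps in 34.5% and 25.6%. In the widest class the intervals overlapped (26.7 to 42.9% and 21.1 to 30.5%). Gaps with 4 or more peaks had 60.5% of flanks marked (52 of 86), gaps with 2 or 3 had 45.9% and gaps with 1 had 45.3%. Gene marking and peak membership come from the same peak lists, genes are not replicates, and what the shared lists add to this difference was not tested.

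**Figure D4:**
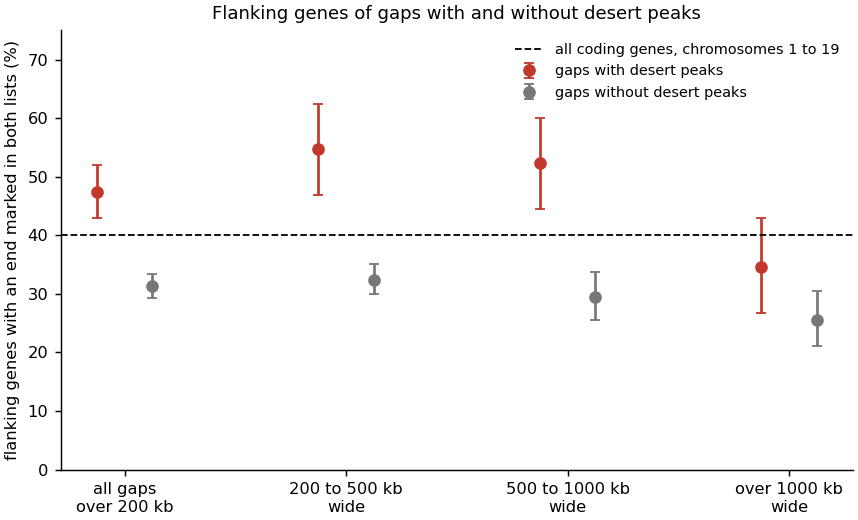
Percent of flanking coding genes with an end marked in both lists, for gaps with (red) and without (grey) desert peaks, over all gaps wider than 200 kb and in 3 width classes, with 95% exact binomial intervals (counting error only). The dashed line is the 40.1% of all coding genes. Red points lie above grey in each class, from 54.8 against 32.4% in the narrowest to 34.5 against 25.6% in the widest.

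Marked flanks mostly carried the mark at their start. Strand was known for 384 flanks of gaps with desert peaks, and the start faced the gap in 50.5% of them, against 53.3% for gaps without. Where the start faced the gap it was marked in 93 of 194 (47.9%), and where the 3′ end faced the gap that end was marked in 11 of 190 (5.79%). For gaps without desert peaks these counts were 275 of 917 (29.99%) and 10 of 805 (1.24%). Starts were thus marked more often than 3′ ends in both sets of gaps, so this is not particular to gaps with desert peaks. Flanking promoters touched by peaks of both lists also had more CG pairs by median. Over the windows of flanking genes, the median number was 26 in the 195 windows so touched and 10 in the other 295. Over all 20084 coding windows the median was 14. The same split was not made over all coding windows, so this is not shown to be particular to flanking genes. The 250 bases before the start are shown for Tbx20 and Gja1, which were chosen after their values were seen. Tbx20 is a marked heart factor gene, and Gja1 has a gene-end peak in list 1 (4.21) and none in list 2.
Tbx20: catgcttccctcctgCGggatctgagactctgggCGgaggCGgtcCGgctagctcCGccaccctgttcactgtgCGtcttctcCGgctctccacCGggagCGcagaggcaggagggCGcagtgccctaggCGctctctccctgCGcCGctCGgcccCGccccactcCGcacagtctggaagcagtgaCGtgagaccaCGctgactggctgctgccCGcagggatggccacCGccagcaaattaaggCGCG
Gja1: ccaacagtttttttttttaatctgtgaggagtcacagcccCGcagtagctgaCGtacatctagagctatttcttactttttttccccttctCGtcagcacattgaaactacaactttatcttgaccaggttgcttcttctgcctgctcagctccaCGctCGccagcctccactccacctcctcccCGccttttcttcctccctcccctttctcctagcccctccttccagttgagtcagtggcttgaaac

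Tbx20 (chr9:24774304-24774553, minus strand) held 22 CG pairs in these bases and Gja1 (chr10:56377050-56377299, plus strand) 6.

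Heart transcription factor genes had the largest share of a whole list beside desert peaks among the 11 lists, 9 of 45 (20%) against 2.29% of all coding genes. This list also often flanks wide gaps. Of its 25 members that flank any gap wider than 200 kb, 9 (36.0%) flanked a gap with desert peaks, against 19.9% of all such genes, 41.7% for energy metabolism (5 of 12), 40% for channels (6 of 15) and 2 of 3 immune genes. Of the 9, 8 were marked, all but Osr1, a zinc finger gene of atrial septation. Hand2, a helix-loop-helix factor of ventricle formation, had 2 peaks in its desert, the nearer at 107 kb (chr8:57214030-57214342) with folds 3.75 and 3.22 on 14 reads in each list. The other (chr8:57200119-57200631) had 5.80 and 6.10 on 28 reads in each. Ankrd1, listed here by symbol and known as a cardiac stress-response gene, had a peak at 109 kb with folds 5.97 and 4.63. Osr1 had a peak at 112 kb with 4.79 and 2.39. The homeobox genes Irx3 and Irx5, of heart conduction, share a desert with 3 peaks, at 5.94 and 3.34, 9.75 and 4.90, and 10.9 and 11.5, the highest inside the lncRNA Gm36670. Tbx20, a T-box factor of the myocardium, had a peak at 200 kb (chr9:24974156-24974736) with folds 6.75 and 4.29 on 40 reads in each list, at the promoter window of the lncRNA E130101E03Rik. The gene-end folds of Tbx20, 9.53 and 6.77, were above those of this peak, and those of Hand2, 4.58 and 3.67, were between those of its pair. Gata6, Meis1 and Tbx3 made up the rest.

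Genes of the contractile and electrical machinery gave 1 and 6 flanks. Of 42 sarcomere genes, Nebl alone flanked one (10.1 and 6.99), and it was not marked. Of 4 sarcomere genes flanking any gap wider than 200 kb, it was the 1 with a desert peak. Among 50 genes listed under calcium and ion channels, receptor genes included, there were 6, and 4 of them were marked, beside 29 of the whole list (58%). Kcnd2, a channel of the transient outward current, had 3 peaks, the nearest at 104 kb (7.0 and 3.34). Chrm2, the muscarinic receptor of the heart, had 3 peaks from 254 kb (5.47 and 4.26), and Kcnj2, an inward rectifier, 1 peak at 383 kb (6.12 and 4.97). Adra1b had 4 peaks and Gja1, the gene of connexin 43, 6 peaks, and neither was marked. The Gja1 peaks lay from 423645 to 724849 bp away, the highest in list 1 with 13.9 and 10.1 (chr10:57113171-57114072), the highest in list 2 with 11.004 and 11.3 (chr10:57114716-57115820), and with up to 152 and 155 reads in the lncRNA Gm36827 (chr10:56980736-56981958, 9.57 and 8.80).

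Of 52 genes of energy metabolism and its regulators, 6 flanked desert peaks and all 6 were marked, beside 44 of the whole list (84.6%). The insulin receptor gene Insr had 3 peaks from 104 kb, the nearest with 5.59 and 7.62 on 66 and 60 reads. Irs2, its adaptor, had a peak at 172 kb (6.97 and 5.36). Foxo1, a factor held in check by insulin, had 2, at 254 kb (5.75 and 4.66) and farther (11.4 and 9.40). Ppp1r3b, a glycogen-targeting subunit, and Nr4a3, an orphan nuclear receptor, had 3 and 4. The sixth, Nr3c2, encodes the mineralocorticoid receptor and had 1 peak, with 7.25 and 10.9. On the list of endothelial genes, both growth factor genes Vegfa (6 peaks, the nearest at 106 kb) and Vegfc (1 peak at 207 kb, 4.75 and 6.68) flanked peaks and were marked. Those counts sit beside a list in which 4 of 25 genes were marked and 7 flank any gap wider than 200 kb.

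The large developmental and neural families were marked to different degrees over their whole lists. Of 400 genes listed by symbol under developmental transcription factor families, 41 (10.3%) flanked desert peaks. Of these, 21 (51.2%) were marked, beside 32.5% of the whole list. Of the 139 on this list that flank any gap wider than 200 kb, the 41 were 29.5%, against 19.9% of all such genes. Sox4 had 4 peaks in the deserts on its sides, the nearest at 101 kb with 7.49 and 4.22, and was marked. Mab21l3, listed by its symbol and not itself known as a transcription factor gene, and Rorb, at 103 and 108 kb, were not. Foxn2, with 3 peaks from 111 kb, was marked. Of 417 cell adhesion and synaptic genes, 30 (7.19%) flanked desert peaks and 6 (20%) were marked, close to the 19.4% of that whole list. Of the 137 on that list that flank any gap wider than 200 kb, the 30 were 21.9%, close to the 19.9% of all such genes. Cadm1, an adhesion gene, was marked (9.15 and 7.83) and had 3 peaks, while Pcdh18, Kcnq5 and Cdh6 were not. Of 73 axon guidance and ephrin genes, 8 flanked desert peaks and 3 of these (37.5%) were marked, beside 37% of the whole list. The 8 were 25.8% of the 31 on that list that flank any gap wider than 200 kb. Nrp1, a receptor for semaphorins and Vegfa, had gene-end folds of 9.5 and 9.47 and 3 peaks from 139 kb (7.19 and 4.83). Efna5, an ephrin, had a peak at 188 kb with 12 and 11.2 on 71 reads in each list, and Robo1 and Ephb1 were not marked.

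Of 46 matrix and fibroblast genes, 6 flanked desert peaks and Ccn2 and Gas1 were marked. The 6 were 30% of the 20 on that list that flank any gap wider than 200 kb. Ccn2, a matricellular growth factor gene, had a peak at 116 kb (4.67 and 3.01), and Gas1 had 2 from 166 kb (7.96 and 5.64). Smoc2 and Thbs2 share a desert with 1 peak (7.46 and 4.76) and were not marked. Of 25 immune genes, Ifng (1 peak at 124 kb, 7.35 and 4.61) and Ptprc flanked desert peaks, and neither was marked. None of the 1518 olfactory and vomeronasal receptor genes flanked one, and 26 of them flank any gap wider than 200 kb.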

How the data were processed

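Each sample had 1 deposited peak list in a 10-column layout without a header. Per the submitters' processing notes, FastQC and Bowtie2 were run, and coordinates are on mm10. The peak caller, control library and filters were not given in the sources used here. The deposited fold is a ratio of signal to background at the summit, p-values and q-values were deposited as −log10, and the deposited score is close to a multiple of the −log10 p. All are the authors' values, and the units were read from the layout and the values.

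Reads per summit were recovered by taking the fold as (reads + 1) / (background + 1) and p as the upper Poisson tail, within 0.001 on the −log10 scale. In list 2 the ChIP reads carry a factor of 0.618, found by a scan. The recovery gave whole reads for 100% of the desert peaks and was tested on simulated data with the factor given. List 2 backgrounds are on the scale of the multiplied reads.

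Genes, promoter windows and microRNAs came from RefSeq tables of GRCm38.p6, whose coordinates are those of mm10. Coordinates are 1-based. No genome sequence was used, so peak sequences are not shown. Distances were taken from the peak midpoint to gene spans, and chromosome length was counted between the outermost genes or peaks. Python 3.11.15 and scipy 1.17.1 were used. Intervals are 95% exact binomial, save those of the difference between gaps, which use a normal approximation. All cover counting error only.

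The members, gene lists and rules were chosen with earlier results of these data known. Named were the 12 peaks of highest summed fold rank, the 8 gaps with most peaks (ties by summed fold, which left out Pik3r1 to Cd180 and Mn1 to Cryba4 at 7 peaks each), the 3 farthest and 3 widest peaks, up to 5 flanking genes per list by distance, up to 8 touched noncoding genes by fold, all touched or near microRNAs, and the peaks at the threshold.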

Additional observations from a re-analysis of the deposited data

Results flagged for a closer look

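Peaks outside the comparisons also lay far from coding genes. On chromosomes X and Y, 12 of 287 shared peaks met the same distance rule, 9 of them on X, with a median list 1 fold of 4.34. On chromosomes 1 to 19, list 2 held 1277 such peaks without a list 1 partner, 7.18% of its 17792 peaks of that kind. Their median fold was 3.16, and 60.8% had a q above 0.05. List 1 held 17 without a list 2 partner, of 607, with a median fold of 4.67. Each count is above 3, a preset limit for listing that does not allow for false peak calls. There was no control sample to set the counts against.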

How the results depend on the processing

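Over 7 results and 78 alternatives, 52 values stayed within the interval of the reported value or within 1.5 times its count, and 26 moved beyond that. Of these results only the difference between gaps could change sign, and it stayed positive. The desert peak count went from 569 to 1082 over 50 kb, 235 over 200 kb and 39 with any annotated gene in place of coding genes. Using list 1 or list 2 alone gave 586 or 1825 peaks, shares of 2.76 or 4.88%, and noncoding contact of 29.4 or 23.2%. Marked flanks were then 48.9 or 45.1%, and the difference between gaps 16.9 or 7.03 points. The lists differ in stringency and were counted as 1 sample, so this does not measure the spread between replicates. List 2 alone had a median fold of 3.59 and list 1 alone 6.15. The share of shared peaks was 4.22% with the upper 50% by fold, 5.25% over 50 kb, 1.14% over 200 kb and 0.189% with any gene. Noncoding contact is 0 with any gene by construction. Marked flanks were 40.8% at a −log10 p of at least 5 (34.2% of all coding genes), 42.4% at a −log10 q of at least 2 (35.3%), 11.6% with the upper 50% by fold and 42.2% with any gene. The median list 1 fold was 6.75, 6.52 and 7.34 under the p, q and fold thresholds, and the list 2 fold 5.97, 5.76 and 5.90, and 4.996 over 50 kb. The difference between gaps was 2.27 points with the upper 50% by fold (interval -1.11 to 5.65) and 8.03 with any gene (-4.23 to 20.3). Both intervals include 0. Stricter thresholds leave fewer peaks by construction, and the cause of the other shifts was not tested. The promoter window in place of gene ends, an alternative chosen after seeing the data, gave 45.1% against 38.7% of all coding genes with such a window. No paired analysis was possible because both samples belong to 1 group. Depth limits single peaks: the median desert summit held 20 reads in list 1.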
